A study of Homo sapiens with 18 samples.

Results

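A41 is a rexinoid known here by its code alone, and its comparison with ethanol, the vehicle, covers 6 of the 18 libraries of the study: the 3 titled A41 and the 3 titled ethanol. All are of U87, an established cell line from a human glioblastoma, with no genetic modification according to the labels, kept for 24 h with 100 nM of A41 or with ethanol alone. The study asked how rexinoids change RNA levels in these cells and used ethanol and bexarotene, an approved rexinoid, as controls. Bexarotene and A34, another coded rexinoid given at the same dose for the same time, serve here only for direct comparisons with A41. A34 was chosen as the coded rexinoid most like A41 in earlier results, so their likeness is not a finding here. The labels do not state that libraries sharing a title were grown as separate cultures, and the p-values below then reflect only library-to-library spread, possibly technical.

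Rexinoids bind the retinoid X receptors (RXR), which sit on DNA as partners of other nuclear receptors. With a retinoic acid receptor (RAR) the pair controls genes of vitamin A handling and of patterning, and with a liver X receptor (LXR) it controls genes that export cholesterol and make fatty acids. Partners of RXR also include the vitamin D receptor (VDR), the thyroid hormone receptors and the peroxisome proliferator-activated receptors (PPAR), and how far a partner can be switched on through RXR alone differs between pairs.

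Each of the 6 libraries held 1.81 to 3.33 gigabases of aligned reads, and between 13116 and 16630 genes reached 1 TPM (transcripts scaled to a fixed sum in each library). A41 replicate 2 had 56.1% of its TPM in ribosomal RNA genes and ethanol replicate 2 had 35.5%, and the remaining 4 libraries had 0.362% to 4.43%. Levels are therefore given as scaled TPM, which is TPM divided by a factor per library (0.417 in A41 replicate 2, 1.21 in ethanol replicate 1), and differences as log2(scaled TPM + 1) of A41 minus ethanol, which understates the change of low genes. A gene was called when the adjusted p from limma, over 18269 genes, was under 0.05. Among markers of the line, the mesenchymal genes VIM (3344 to 4449 scaled TPM) and CD44 (851 to 1214) were high in all 6 libraries. Of 11 astroglial markers 7 were high enough to test and the other 4, S100B, AQP4, SLC1A2 and ALDH1L1, stayed under 1, with S100B at 0, and 6 of 9 glioma stem markers, SOX2 and PROM1 among them, were under 1 too.

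A41 changed 136 genes, 0.744% of those tested: 89 rose (0.487%) and 47 fell (0.257%). The cells were measured in bulk, so a change in every cell and a change in the share of cells that express a gene cannot be told apart. Increases were larger than decreases. The log2 difference passed 1 in 30 of the genes that rose and in 2 of those that fell, EREG and CCL3. In each of the 136 the 3 A41 libraries lay wholly above or wholly below the 3 ethanol libraries, a pattern that 15.9% of all genes tested showed (7.91% above and 7.94% below). Protein-coding genes made up 91.0% of the genes that rose and 97.9% of those that fell, against 67.4% of all tested. Genes that fell were long: 44.7% spanned more than 100 kb, against 20.2% of those that rose and 15.1% of all tested. The median spans were 90.6, 32.8 and 19.2 kb. Median levels, in the same order, were 26.9, 28.2 and 7.59 scaled TPM. Whether level bears on the shares of long or protein-coding genes was not tested.

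The number of calls moved with the libraries used. Leaving out 1 library at a time gave 83 calls without A41 replicate 2, 82 without A41 replicate 3, 76 without ethanol replicate 1 and 73 without ethanol replicate 2 or ethanol replicate 3, and 115 without A41 replicate 1. Of the 136 genes, 43 that rose and 13 that fell were called in all 6 omissions. Without the 3 libraries rich in ribosomal RNA (these 2 and bexarotene replicate 1) 49 genes were called, 41 higher and 8 lower, of which 37 and 7 were among the 89 and 47. Of the 57 called genes that are named below, 32 lost the call there. The balance of directions moved with the scaling. It was 41 higher against 68 lower when TPM was renormalized without ribosomal RNA genes, 74 against 16 with upper-quartile factors and 4 against 0 in TPM as deposited (STX16-NPEPL1, CYP26B1, BGLAP and STRA6). The median difference of all genes was -0.27 in TPM as deposited and -0.16 without ribosomal RNA genes, against -0.01 in scaled TPM. A fit of the 6 libraries alone, with 4 residual degrees of freedom in place of 12, gave 31 against 3 with the same factors and also with factors from those 6.

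**Figure D1:**
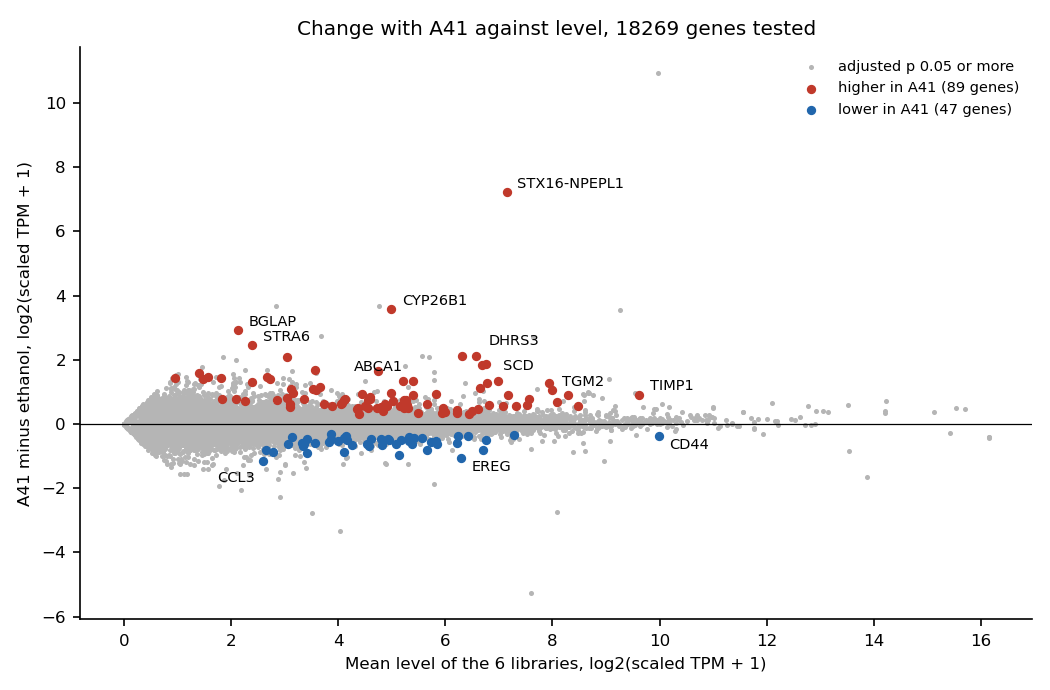
Each point is 1 of 18269 genes, with the mean level of the 6 libraries, log2(scaled TPM + 1), on the x axis and the A41 minus ethanol difference on the same scale on the y axis. Red points (89) are genes that rose and blue points (47) genes that fell, and the named increases reach further from 0 than the decreases, which end at CCL3.

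Genes that handle retinoids were among the largest increases. CYP26B1, an enzyme that breaks down retinoic acid, stood at 4.85, 2.99 and 3.98 scaled TPM in the ethanol libraries and at 66.5, 54.8 and 51.9 with A41. The means, 3.94 ± 0.931 and 57.7 ± 7.75 (SD, n = 3 each), were 14.7-fold apart, a difference of 3.58 ± 0.19 (SE) with an adjusted p of 5.22e-08. DHRS3, which turns retinaldehyde back into retinol, was at 29.9, 36.7 and 37.7 with ethanol and 157, 146 and 161 with A41. That is a log2 difference of 2.13 ± 0.08 (SE, adjusted p = 1.03e-09), with all 3 A41 libraries higher. STRA6, the membrane protein that takes retinol into cells, went from 0.870, 0.311 and 0.740 to 9.36, 7.01 and 7.44. STRA6 was higher in every A41 library than in every ethanol library (2.45 ± 0.21, adjusted p = 8.51e-06). In each of these genes the lowest A41 library lay several fold above the highest ethanol library. All 3 were called in every single-library omission, and also when the libraries rich in ribosomal RNA were dropped.

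The promoters of these 3 genes are shown because the genes moved together and retinoid receptors bind DNA. Each is the 250 bases before the start that RefSeq gives on GRCh38.p14, written along the gene's own strand. Capitals mark the nuclear receptor half-site AGGTCA, which reads TGACCT where it lies on the other strand.
CYP26B1: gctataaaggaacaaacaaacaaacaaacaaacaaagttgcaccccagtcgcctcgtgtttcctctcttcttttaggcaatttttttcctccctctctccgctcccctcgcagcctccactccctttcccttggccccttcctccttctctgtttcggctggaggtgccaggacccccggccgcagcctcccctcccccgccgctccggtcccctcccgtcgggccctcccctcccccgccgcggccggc
DHRS3: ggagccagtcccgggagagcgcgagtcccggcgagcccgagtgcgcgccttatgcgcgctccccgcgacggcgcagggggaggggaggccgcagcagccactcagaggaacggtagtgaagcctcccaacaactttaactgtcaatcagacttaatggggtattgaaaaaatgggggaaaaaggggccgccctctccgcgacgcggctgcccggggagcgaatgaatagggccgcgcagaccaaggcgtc
STRA6: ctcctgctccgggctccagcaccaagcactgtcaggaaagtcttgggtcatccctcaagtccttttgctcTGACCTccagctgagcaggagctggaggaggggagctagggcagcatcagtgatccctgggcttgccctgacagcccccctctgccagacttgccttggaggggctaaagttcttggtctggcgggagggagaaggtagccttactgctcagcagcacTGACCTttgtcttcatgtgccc
In the deposited tables, on GRCh38, CYP26B1 (ENSG00000003137) spans chr2:72129238-72148038, DHRS3 (ENSG00000162496) chr1:12567910-12618210 and STRA6 (ENSG00000137868) chr15:74179466-74212267, all on the minus strand. The CYP26B1 window is chr2:72147863-72148112 on the minus strand, the DHRS3 window chr1:12618211-12618460 on the minus strand and the STRA6 window chr15:74212260-74212509 on the minus strand. STRA6 held 2 half-sites, 180 to 175 and 22 to 17 bases before the start, and the windows of CYP26B1 and DHRS3 held none. The half-site lay in 13.9% of 27305 RefSeq promoters of 300 bases (250 before and 50 after the start, both strands). It lay in 5 of the 63 promoters matched to genes that rose (7.94%) and in 7 of the 32 matched to genes that fell (21.9%). Direct repeats of AGGTCA spaced by 1, 2, 4 or 5 bases lay in 0.132%, 0.0439%, 0.0769% and 0.0806% of all promoters and in none of those 63 and 32, which says only that these letters are not in these windows.

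Most other members of the retinoid lists were low or did not pass, RDH11 being the exception. The list for retinoid breakdown and storage has 10 genes and also holds uptake and carrier proteins. Of the 10, 6 stayed under 1 scaled TPM in all 6 libraries, CYP26A1 and the retinol esterifying enzyme LRAT among them, with RBP4 at 0. The 4 that were tested all had positive differences, 3 of them called higher, against 0.487% of all genes tested. Their median was 2.29, against -0.01 for all genes tested, in a list chosen with earlier results of these data known. The fourth, CRABP2, a carrier of retinoic acid to its receptor, was at 41.8, 35.2 and 32.2 with ethanol and 74.2, 60.8 and 56.4 with A41. Its difference of 0.79 had an adjusted p of 0.313, and 0.0422 with the replicate number as a block. The list for the synthesis of retinoic acid had 7 tested genes, with a median of -0.17. Only RDH11 was called, a retinal reductase, which does not itself make retinoic acid. It went from 62.7, 64.7 and 59.7 to 82.7, 85.8 and 85.04. Means were 62.4 ± 2.47 and 84.5 ± 1.60 (SD, n = 3 each), a difference of 0.43 (adjusted p = 0.019). ALDH1A3, a dehydrogenase that makes retinoic acid, was abundant in both groups, at 279.7, 319 and 334 with ethanol and 301, 255 and 270.0 with A41 and was not called (adjusted p = 0.475). The RDH11 call was lost in 5 of the 6 single-library omissions, with adjusted p up to 0.106.

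**Figure D2:**
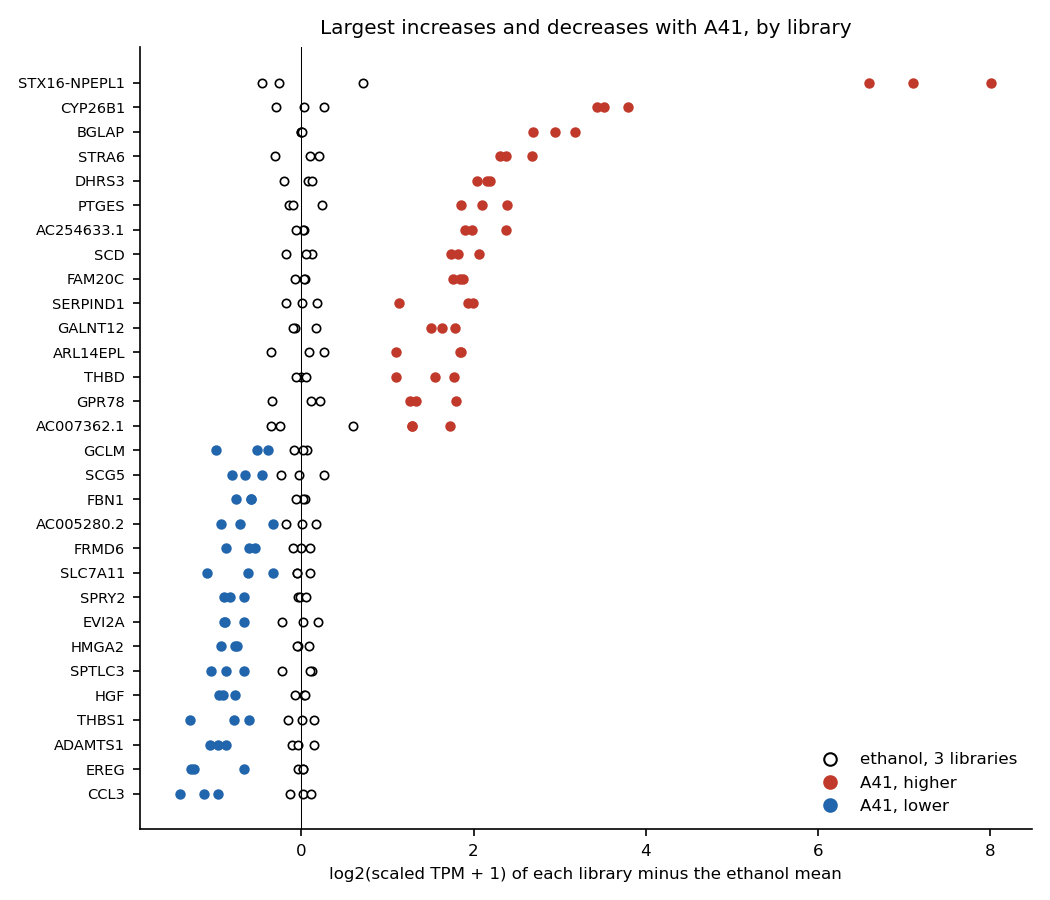
For the 15 largest increases and 15 largest decreases among the called genes, each library's log2(scaled TPM + 1) is drawn minus the ethanol mean, with open circles for the 3 ethanol libraries and filled circles for the 3 A41 libraries. In every row the filled circles lie on 1 side of all open circles, and CYP26B1, at 3.58, stands ahead of STRA6 at 2.45 and DHRS3 at 2.13.

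Known RAR targets outside retinoid handling rose too. Of 15 tested RAR targets, a list that holds CYP26B1, STRA6 and DHRS3 as well, 6 rose and none fell: those 3 and TGM2, NRIP1 and HOXA5. Over the whole list 13 differences were positive and the median was 0.72. TGM2, a tissue transglutaminase that crosslinks proteins, was at 167, 158 and 165 with ethanol and 353, 355 and 319 with A41. With no overlap between the groups the difference was 1.06 ± 0.08 (adjusted p = 2.82e-06). NRIP1, a corepressor of nuclear receptors that retinoic acid induces, was at 24.6, 29.8 and 27.1 with ethanol and 49.8, 45.1 and 42.98 with A41. The A41 libraries all lay above the ethanol ones (difference 0.74 ± 0.08, adjusted p = 0.000155). Both genes kept the call in all 6 omissions. RARB, the receptor gene known for its own RAR site, was at 5.10, 5.07 and 5.07 with ethanol and at 10.8, 6.30 and 6.92 with A41. A41 replicate 1 stood apart there, and the difference of 0.53 was not called (adjusted p = 0.341). RARB overlaps TOP2B, which is at a higher level on the opposite strand, and no source used here states how the tables handled strand.

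HOX genes are patterning factors that retinoic acid switches on in embryos. HOXA5 was the 1 called of 14 tested, 12 of which had positive differences (median 0.08). Its values were 1.66, 1.71 and 1.47 with ethanol and 3.45, 3.26 and 3.84 with A41. HOXA5 thus rose in all 3 A41 libraries, with a difference of 0.79 ± 0.16 (adjusted p = 0.0273). That call was lost in all 6 single-library omissions (adjusted p up to 0.131), and HOXA5 lies within HOXA3, whose level is higher. HOXA3 was at 3.45, 2.73 and 2.16 with ethanol and 6.19, 5.02 and 5.71 with A41, a difference of 0.82 that was not called (adjusted p = 0.137). HOTAIRM1, a long noncoding RNA of the same cluster that was chosen after its values were seen, was at 24.7, 21.7 and 24.1 with ethanol and 42.1, 38.9 and 37.6 with A41. No ethanol library reached into the A41 range, and HOTAIRM1 differed by 0.73 ± 0.11 (adjusted p = 0.00356).

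None of the RXR, RAR, LXR and PPAR genes named here passed the test. RXRA was at 5.83, 5.06 and 6.26 with ethanol and 5.10, 5.39 and 5.72 with A41, and RXRB at 9.57, 7.36 and 9.53 with ethanol and 8.86, 8.82 and 8.50 with A41. The intervals of their differences ran from -0.36 to 0.23 and from -0.26 to 0.25. RARA had a difference of 0.14 (interval -0.26 to 0.54) and RARG one of 0.10 (-0.14 to 0.34), neither called. The LXR genes NR1H2 and NR1H3 differed by 0.27 (adjusted p = 0.435) and 0.05 (adjusted p = 0.948), and PPARG by 0.11 (adjusted p = 0.947). NR1H3 overlaps ACP2 and RXRB overlaps SLC39A7, both at higher levels. Among 21 tested receptors and cofactors, 2 rose, NRIP1 and VDR. VDR was at 23.9, 18.9 and 20.2 with ethanol and 28.8, 29.1 and 31.2 with A41. Between the group means of 21 ± 2.60 and 29.7 ± 1.32 (SD, n = 3 each) lay a difference of 0.49 (adjusted p = 0.0212). The VDR call was lost in 4 of the 6 omissions, with adjusted p up to 0.128.

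Genes under LXR rose for the steps of cholesterol export and fatty acid desaturation. ABCA1, the transporter that loads cholesterol onto lipoprotein, was at 21.9, 24.04 and 22.4 with ethanol and 63.2, 55.2 and 58.8 with A41. Group ranges were apart, the A41 one above, with a difference of 1.34 ± 0.11 and an adjusted p of 8.51e-06. SCD, the desaturase that makes oleate, was at 49.5, 47 and 39.9 with ethanol and 193, 154 and 162 with A41. The means, 45.5 ± 4.96 and 169.5 ± 20.4 (SD, n = 3 each), were 3.73-fold apart, a difference of 1.88 ± 0.15 (SE) with an adjusted p of 4.17e-06. SREBF1, the master factor of fatty acid synthesis, was at 6.42, 7.39 and 6.64 with ethanol and 14.97, 17.7 and 13.2 with A41. That is a log2 difference of 1.05 ± 0.21 (SE, adjusted p = 0.0221), with all 3 A41 libraries higher. ABCA1 and SCD kept their calls in all omissions, whereas SREBF1 lost its call in 5 of 6 (adjusted p up to 0.114). SREBF1 overlaps RAI1, which is at a slightly higher level. These were the 3 called of 9 tested LXR targets, 8 of which had positive differences (median 0.46). Without the libraries rich in ribosomal RNA that median was 0.19. ABCG1, another cholesterol transporter under LXR, was too low to test at a mean of 0.225 with ethanol and 0.344 with A41.

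Fatty acid synthesis changed in part. Of 12 tested genes 3 rose (median 0.20): SCD, SREBF1 and FADS1, a desaturase of polyunsaturated fatty acids that went from 66.7, 62.4 and 65.4 to 80.8, 82.8 and 83.4. FADS1 was higher in every A41 library than in every ethanol library, 1.27-fold in the means (0.34 ± 0.07, adjusted p = 0.0303). FASN, the fatty acid synthase itself, was at 27.1, 21.5 and 22.1 with ethanol and 23.4, 31.8 and 28.9 with A41. The groups overlapped and the difference of 0.24 was not called (adjusted p = 0.565). Enzymes that handle fatty acids further on included ACSL3, which activates them to acyl-CoA, at 26.9, 28.7 and 28.4 with ethanol and 43.6, 40.0 and 41.3 with A41. Means were 28 ± 0.941 and 41.6 ± 1.81 (SD, n = 3 each), a difference of 0.55 (adjusted p = 0.00046). ECH1, an isomerase of fatty acid oxidation, went from 39.4, 36.5 and 41.9 to 61.5, 61.7 and 58.1. With no overlap between the groups the difference was 0.61 ± 0.08 (adjusted p = 0.000817). Those were 2 of 12 tested acyl-CoA and oxidation genes, 9 with positive differences (median 0.25). In 7 of the 12 all A41 libraries lay above all ethanol libraries and in 1 below, against 7.91% and 7.94% of all genes tested. FADS1 lost its call in all 6 omissions, with adjusted p up to 0.162.

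In cholesterol synthesis the regulator rose and no enzyme was called without the replicate block. SREBF2, the factor that drives the cholesterol pathway, was at 17.6, 14.7 and 16.5 with ethanol and 23.98, 23.04 and 22.5 with A41. The A41 libraries all lay above the ethanol ones (difference 0.49 ± 0.08, adjusted p = 0.00571). It was the 1 called of 22 tested members (4 rose with the replicate block), of which 18 had positive differences (median 0.18). In 9 of the 22 all A41 libraries lay above all ethanol libraries, against 7.91% of all genes tested. DHCR7, a reductase at the end of the pathway, had a difference of 0.63 (adjusted p = 0.105), and was called with the replicate block (adjusted p = 0.0459). SREBF2 (ENSG00000198911, chr22:41833079-41907307 on the plus strand) kept its call in each single omission, but not without the libraries rich in ribosomal RNA (adjusted p = 0.117).

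The SREBF2 promoter is shown because, of the 63 matched promoters of genes that rose, it alone held the sterol response element TCACNCCAC. That is 1.59% of the 63, near the 1.15% of all promoters, so the share does not set the genes that rose apart. The element is in capitals, 133 to 125 bases before the start, in chr22:41832855-41833104 on the plus strand (RefSeq, GRCh38.p14).
SREBF2: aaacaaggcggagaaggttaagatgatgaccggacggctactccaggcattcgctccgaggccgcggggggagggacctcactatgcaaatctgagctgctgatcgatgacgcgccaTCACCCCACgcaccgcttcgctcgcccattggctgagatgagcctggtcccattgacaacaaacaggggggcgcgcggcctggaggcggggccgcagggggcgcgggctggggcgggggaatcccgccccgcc

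**Figure D3:**
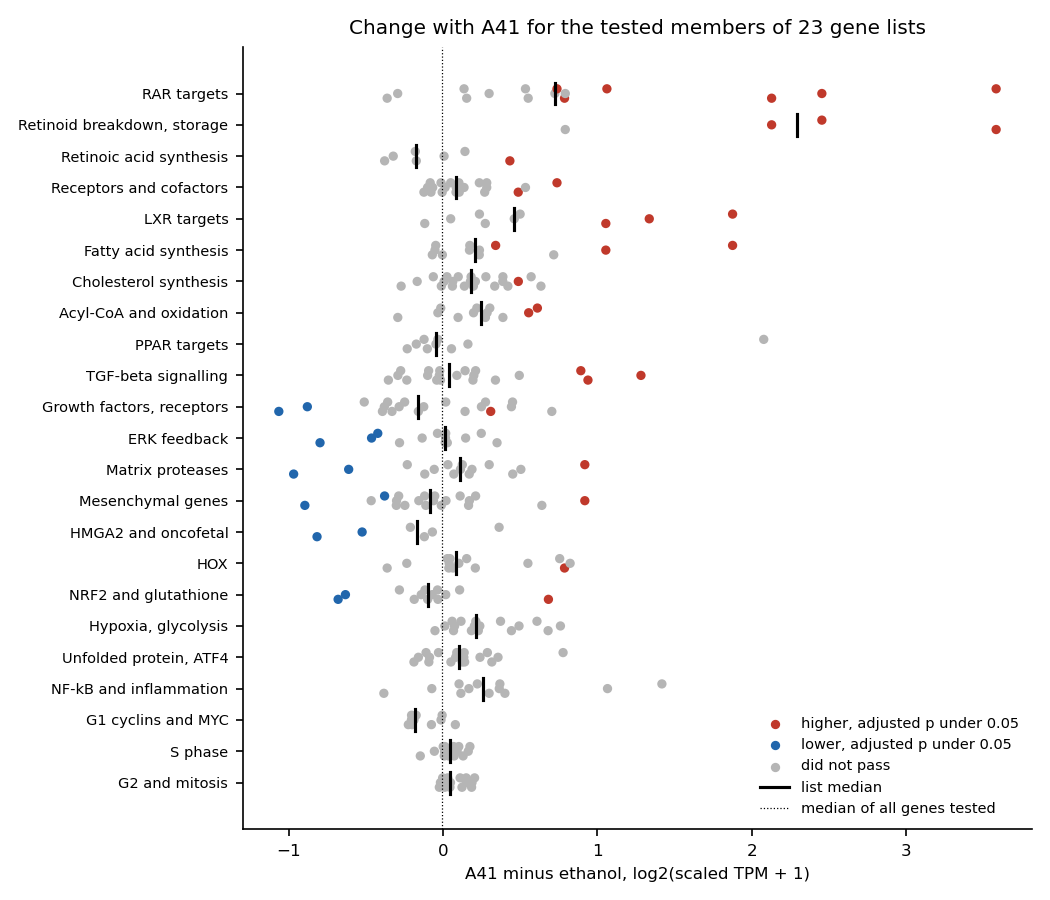
Each point is a tested member of 1 of 23 gene lists, placed by its A41 minus ethanol difference in log2(scaled TPM + 1), with red for members that rose, blue for members that fell and grey for the rest. Black bars are list medians and the dotted line is the median of all genes tested (-0.01). The list for retinoid breakdown and storage has the median furthest to the right, at 2.29. All lists were chosen with earlier results of these data known.

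PPAR targets were not called. Of 9 tested none passed in limma (1 had an unadjusted p under 0.05), and the median was -0.05. ANGPTL4, an inhibitor of lipoprotein lipase and a PPAR target, was at 22.7, 17.6 and 12.9 with ethanol and 136, 62.03 and 52.1 with A41. The groups did not overlap, yet the 3 A41 values were far apart and the difference of 2.08 ± 0.60 (SE) had an adjusted p of 0.183. With the replicate block the adjusted p was 0.000819. Replicate 1 was the highest in both groups. The lipid droplet gene PLIN2 was under 1 scaled TPM on average in both groups, and PDK4, a kinase that spares glucose, was at 1.71 with ethanol and 1.46 with A41.

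Among 5 tested targets of VDR and the thyroid hormone receptors 2 rose. BGLAP encodes osteocalcin, a bone protein whose gene carries a classic vitamin D response element. It was listed at 0.000303, 0 and 0.0109 with ethanol and at 8.10, 5.46 and 6.71 with A41. BGLAP thus rose in all 3 A41 libraries, with a difference of 2.94 ± 0.47 (adjusted p = 0.00575). BGLAP lies inside the readthrough gene PMF1-BGLAP, which was at 4.74, 0.421 and 2.38 with ethanol and 1.70, 3.24 and 2.56 with A41, so how reads were divided between them is uncertain. THBD, thrombomodulin, the endothelial receptor that turns thrombin into an anticoagulant, was at 2.30, 2.45 and 2.19 with ethanol and 10.3, 8.69 and 6.12 with A41. No ethanol library reached into the A41 range, and THBD differed by 1.47 ± 0.19 (adjusted p = 0.000906). CYP24A1, the enzyme that clears vitamin D, was too low to test, with means of 0.158 and 0.793. In the absence of the libraries rich in ribosomal RNA the adjusted p was 0.0692 for BGLAP and 0.034 for THBD.

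Another readthrough gene had the largest called difference of all. STX16-NPEPL1, which joins the syntaxin gene STX16 to the peptidase gene NPEPL1 on chromosome 20, was listed at 0.251, 0.435 and 1.81 with ethanol and 164, 442 and 235 with A41. Between the group means of 0.832 ± 0.851 and 280.1 ± 144 (SD, n = 3 each) lay a difference of 7.23 (adjusted p = 0.0128). STX16 itself was at 50.7, 41.9 and 47.5 with ethanol and 49.7, 44.7 and 48.8 with A41, and NPEPL1 at 4.87, 5.18 and 4.88 and then 3.86, 2.03 and 5.88. The readthrough gene was also at 333 in A34 replicate 3, against 0.742 and 1.45 in the other A34 libraries. Its call was lost in 4 of the 6 omissions (adjusted p up to 0.0668), and the division of reads among these overlapping genes is uncertain.

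Of 15 tested coagulation genes 2 were called (median -0.02). They were THBD and SERPIND1. SERPIND1 encodes heparin cofactor II, an inhibitor of thrombin, and was at 4.52, 3.85 and 5.23 with ethanol and 20.9, 20.0 and 11.1 with A41. Group ranges were apart, the A41 one above, with a difference of 1.69 ± 0.24 and an adjusted p of 0.00155. SERPIND1 lies within PI4KA, which is at a higher level on the opposite strand. PLAT, tissue plasminogen activator, was at 4.09, 4.62 and 3.55 with ethanol and 6.59, 7.00 and 7.75 with A41, a difference of 0.68 (adjusted p = 0.0721, or 0.0473 with the replicate block).

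Among genes for secreted signals, PTGES and LIF rose. PTGES, the synthase that makes prostaglandin E2, was at 33.8, 25.6 and 26.4 with ethanol and 125, 153 and 105 with A41. The means, 28.6 ± 4.53 and 128 ± 24.2 (SD, n = 3 each), were 4.47-fold apart, a difference of 2.11 ± 0.16 (SE) with an adjusted p of 2.15e-06. It was the 1 called of 8 tested genes of the prostaglandin pathway (median 0.15). PTGS2, the inducible cyclooxygenase upstream of it, had means of 7.28 and 11.7 (adjusted p = 0.574), and the receptor PTGER4 means of 2.14 and 1.00 (adjusted p = 0.0822).

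LIF, a cytokine of the IL6 family, was at 78.8, 61.5 and 70.6 with ethanol and 196, 214 and 134 with A41. That is a log2 difference of 1.33 ± 0.26 (SE, adjusted p = 0.021), with all 3 A41 libraries higher. None of the other 12 tested genes of that family was called. The LIF call was lost in 5 of the 6 omissions (adjusted p up to 0.112). IL1B, an inflammatory cytokine abundant in this line, was at 281, 271 and 285 with ethanol and 1037, 847 and 473 with A41. The groups did not overlap, and the difference of 1.42 ± 0.36 had an adjusted p of 0.102, or 0.00629 with the replicate block. No member of the NFkB list passed in limma (0 of 12, median 0.26, 10 positive), and 5 had an unadjusted p under 0.05. In 7 of the 12 all A41 libraries lay above all ethanol libraries and in 0 below, against 7.91% above over all genes tested.

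The TGF-beta pathway had 3 of 20 tested genes higher and none lower, with a median of 0.04. LTBP3, which holds latent TGF-beta in the matrix, was at 63.1, 65.4 and 59.1 with ethanol and 139, 174 and 149 with A41. LTBP3 was higher in every A41 library than in every ethanol library, 2.46-fold in the means (1.28 ± 0.13, adjusted p = 8.86e-05). SMAD3, which carries the TGF-beta signal to the nucleus, was at 36.8, 39.7 and 37.8 with ethanol and 76.97, 70.7 and 74.2 with A41. Means were 38.1 ± 1.46 and 73.9 ± 3.14 (SD, n = 3 each), a difference of 0.94 (adjusted p = 4.37e-05). ID1, an inhibitor of basic helix-loop-helix factors that BMP and TGF-beta signals induce, was at 227, 208 and 219 with ethanol and 421, 376 and 422 with A41. With no overlap between the groups the difference was 0.89 ± 0.06 (adjusted p = 1.44e-06). All 3 were called in every omission. The ligands TGFB1, TGFB2 and TGFB3 and the receptors TGFBR1, TGFBR2 and TGFBR3 did not pass.

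Among growth factors and their receptors 2 ligands fell and 1 receptor rose. EREG, epiregulin, a ligand of the EGF receptor, was at 102, 106 and 106 with ethanol and 65.3, 43.6 and 42.5 with A41. The A41 libraries all lay below the ethanol ones (difference -1.06 ± 0.18, adjusted p = 0.00717). HGF, the ligand of the receptor tyrosine kinase MET, was at 7.47, 8.09 and 8.15 with ethanol and 3.73, 3.60 and 4.22 with A41. HGF thus fell in all 3 A41 libraries, with a difference of -0.88 ± 0.10 (adjusted p = 0.000348). MET itself was at 74.9, 77.1 and 79.04 with ethanol and 98.9, 87.9 and 101 with A41, and its difference of 0.31 ± 0.06 (adjusted p = 0.021) turned to -0.03 in TPM as deposited. MET lost its call in 5 of 6 omissions, up to an adjusted p of 0.109, while HGF and EREG kept theirs. EREG lost its call without the libraries rich in ribosomal RNA (adjusted p = 0.168). These were the 3 called of 19 tested growth factors and receptors (median -0.16). EGFR had means of 39.6 and 31.4 (adjusted p = 0.372), and TGFA, another EGF receptor ligand, means of 50.1 and 84.9 (adjusted p = 0.238).

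Of 13 tested feedback genes of the ERK kinase cascade 3 fell and none rose. SPRY2, a sprouty protein that dampens receptor tyrosine kinase signals, was at 61.1, 61.9 and 65.5 with ethanol and 33.2, 39.3 and 35 with A41. No ethanol library reached into the A41 range, and SPRY2 differed by -0.80 ± 0.11 (adjusted p = 0.00146). DUSP4, a phosphatase that removes phosphate from ERK in the nucleus, was at 28.8, 26.4 and 27.4 with ethanol and 19.5, 19.3 and 20.4 with A41. Between the group means of 27.6 ± 1.22 and 19.7 ± 0.587 (SD, n = 3 each) lay a difference of -0.46 (adjusted p = 0.00753). SPRY4 was at 19.2, 19.2 and 18.2 with ethanol and 13.5, 14.6 and 13.3 with A41. Group ranges were apart, the A41 one below, with a difference of -0.42 ± 0.09 and an adjusted p of 0.0325. The other 10 tested members were not called, among them DUSP6 with means of 31.4 and 38.2 and ETV5 with 40.6 and 39.7. The list median was 0.01. Relative to all genes it was 0.02, and -0.03 in TPM as deposited. The SPRY4 call was lost in all 6 omissions (adjusted p up to 0.146) and that of DUSP4 in 1 (0.0529).

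Proteins of the extracellular matrix and its proteases moved both ways. ADAMTS1, a protease that cuts proteoglycans, was at 50.9, 42.2 and 44.3 with ethanol and 21.3, 24.4 and 22.99 with A41. The means, 45.8 ± 4.54 and 22.9 ± 1.55 (SD, n = 3 each), were 2.00-fold apart, a difference of -0.97 ± 0.11 (SE) with an adjusted p of 0.000155. Its neighbour ADAMTS5, a related aggrecanase, was at 9.66, 7.77 and 10.0 with ethanol and 6.38, 5.16 and 5.36 with A41. That is a log2 difference of -0.61 ± 0.12 (SE, adjusted p = 0.0297), with all 3 A41 libraries lower. TIMP1, an inhibitor of metalloproteinases, was at 617, 494 and 509 with ethanol and 1082, 1197 and 811 with A41. TIMP1 was higher in every A41 library than in every ethanol library, 1.91-fold in the means (0.92 ± 0.18, adjusted p = 0.026). The calls of ADAMTS5 and TIMP1 were each lost in 4 of 6 omissions, with adjusted p up to 0.158 and 0.131. The metalloproteinases MMP2, MMP14 and MMP3 were not called.

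Of 20 mesenchymal genes TIMP1 rose and 2 fell, with a median of -0.09. CD44, the hyaluronan receptor, was at 1214, 1067 and 1159 with ethanol and 851, 859.6 and 933 with A41. Means were 1146 ± 74.1 and 881 ± 44.9 (SD, n = 3 each), a difference of -0.38 (adjusted p = 0.0303). THBS1, thrombospondin, was at 14.1, 11.3 and 12.8 with ethanol and 8.01, 4.59 and 6.96 with A41. With no overlap between the groups the difference was -0.89 ± 0.19 (adjusted p = 0.0379). FBN1, fibrillin, which forms elastic microfibrils, was at 34.5, 33.98 and 32.2 with ethanol and 21.99, 19.5 and 22.1 with A41. The A41 libraries all lay below the ethanol ones (difference -0.64 ± 0.14, adjusted p = 0.0384). CD44 and THBS1 lost their calls in 5 of the 6 omissions and FBN1 in all 6, with adjusted p up to 0.154, 0.172 and 0.165. VIM, FN1, TNC and the factors SNAI2, TWIST1 and ZEB1 did not pass. ITGB3, the integrin chain that binds vitronectin, was the 1 called of 18 collagens and integrins, at 112, 92.1 and 95.4 with ethanol and 210.1, 180.5 and 167 with A41. ITGB3 thus rose in all 3 A41 libraries, with a difference of 0.89 ± 0.13 (adjusted p = 0.00341). The ITGB3 call was lost without the libraries rich in ribosomal RNA.

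HMGA2, a chromatin protein of embryonic and tumour cells, fell. It was at 127, 127 and 139.9 with ethanol and 76.3, 68.6 and 77.8 with A41. No ethanol library reached into the A41 range, and HMGA2 differed by -0.82 ± 0.07 (adjusted p = 1.34e-05). IGF2BP3, an oncofetal RNA-binding protein, was at 64.4, 62.8 and 70.98 with ethanol and 42.9, 42.97 and 51.5 with A41. Between the group means of 66.1 ± 4.31 and 45.8 ± 4.92 (SD, n = 3 each) lay a difference of -0.52 (adjusted p = 0.00667). The related genes HMGA1, with means of 399 and 517, and IGF2BP2, with 32.1 and 30.6, were not called. HMGA2 kept its call in all 6 omissions and after the libraries rich in ribosomal RNA were dropped, and IGF2BP3 lost it in 1 (adjusted p = 0.0518).

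In the list for NRF2 and glutathione, the supply genes SLC7A11 and GCLM fell and GPX4, which uses glutathione, rose. SLC7A11, the cystine importer, was at 12.4, 11.01 and 11.02 with ethanol and 8.94, 4.84 and 7.10 with A41. Group ranges were apart, the A41 one below, with a difference of -0.68 ± 0.14 and an adjusted p of 0.0379. GCLM, a subunit of the ligase that starts glutathione synthesis, was at 28.3, 25.4 and 27.3 with ethanol and 20.3, 13.05 and 18.6 with A41. The means, 26.97 ± 1.48 and 17.3 ± 3.81 (SD, n = 3 each), were 1.56-fold apart, a difference of -0.63 ± 0.13 (SE) with an adjusted p of 0.0361. GPX4, the peroxidase that uses glutathione to repair lipid peroxides, was at 186, 224 and 213 with ethanol and 303, 376 and 324 with A41. That is a log2 difference of 0.68 ± 0.10 (SE, adjusted p = 0.00269), with all 3 A41 libraries higher. In both genes that fell A41 replicate 2, the library with most ribosomal RNA, was the lowest. Without that library the differences were -0.47 for SLC7A11 (adjusted p = 0.108) and -0.45 for GCLM (adjusted p = 0.118). Each call was lost in 5 of 6 omissions (adjusted p up to 0.165 and 0.151). GPX4 kept its call in all of these omissions, though not in TPM as deposited. The NRF2 targets NQO1, TXNRD1 and HMOX1 did not pass, and the list of 13 had a median of -0.10.

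Guidance receptors and enzymes of secreted proteins changed singly. NRP2, neuropilin 2, a coreceptor of semaphorins and of vascular growth factors, was at 67.8, 58.1 and 58.7 with ethanol and 147, 135 and 127 with A41. NRP2 was higher in every A41 library than in every ethanol library, 2.21-fold in the means (1.13 ± 0.15, adjusted p = 0.000963). SEMA3C, a secreted semaphorin, was at 34.7, 34.3 and 34.3 with ethanol and 27.3, 22.7 and 24.9 with A41. Means were 34.4 ± 0.243 and 24.96 ± 2.26 (SD, n = 3 each), a difference of -0.45 (adjusted p = 0.00743). The SEMA3C call was lost without the libraries rich in ribosomal RNA, and also with upper-quartile factors. NRP1 had means of 130.0 and 114 and was not called (adjusted p = 0.459). FAM20C, the Golgi kinase that phosphorylates secreted proteins, was at 42.1, 45.8 and 45.5 with ethanol and 153, 166 and 161 with A41. With no overlap between the groups the difference was 1.82 ± 0.13 (adjusted p = 1.44e-06). GALNT12, which starts O-linked glycans, was at 11.4, 13.6 and 11.2 with ethanol and 43.7, 39.4 and 36.1 with A41. The A41 libraries all lay above the ethanol ones (difference 1.64 ± 0.13, adjusted p = 3.37e-06). FAM20C and GALNT12 kept their calls in all omissions.

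The remaining named genes were at low or middle levels. GATA6, a transcription factor of endoderm and heart, was at 5.92, 5.99 and 5.36 with ethanol and 10.4, 9.23 and 8.36 with A41. GATA6 thus rose in all 3 A41 libraries, with a difference of 0.61 ± 0.10 (adjusted p = 0.00743). SPTLC3, a subunit of the enzyme that starts sphingolipid synthesis, was at 17.8, 23.1 and 22.6 with ethanol and 9.69, 10.98 and 12.9 with A41. No ethanol library reached into the A41 range, and SPTLC3 differed by -0.86 ± 0.15 (adjusted p = 0.00791). FRMD6, a protein linked to the Hippo pathway, was at 30.6, 28.4 and 26.4 with ethanol and 19.2, 14.99 and 18.3 with A41. Between the group means of 28.4 ± 2.07 and 17.5 ± 2.24 (SD, n = 3 each) lay a difference of -0.67 (adjusted p = 0.00639). CCL3, a chemokine with near-identical copies whose reads may be divided between genes, was at 7.50, 6.64 and 8.03 with ethanol and 3.28, 2.16 and 2.82 with A41. Group ranges were apart, the A41 one below, with a difference of -1.17 ± 0.23 and an adjusted p of 0.027. SCG5, a chaperone of prohormone processing, was at 59.4, 41.6 and 48.3 with ethanol and 35.6, 30.99 and 27.7 with A41. The means, 49.7 ± 9.02 and 31.5 ± 3.96 (SD, n = 3 each), were 1.58-fold apart, a difference of -0.64 ± 0.12 (SE) with an adjusted p of 0.019. The call of CCL3 was lost in 5 of 6 omissions (adjusted p up to 0.131) and that of SCG5 in 4 (0.0995). Those of GATA6 and SPTLC3 were lost in 1 and 2 omissions (0.0541 and 0.055), and that of FRMD6 in none. FRMD6 lost its call without the libraries rich in ribosomal RNA (adjusted p = 0.136). The increases GPR78 (1.46), ARL14EPL (1.60) and AC007362.1 (1.43) and the decreases EVI2A (-0.81) and AC005280.2 (-0.65) complete the 15 largest in each direction. ARL14EPL, AC007362.1 and EVI2A overlap genes at higher levels.

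Lists for other programmes held no gene called by limma without the block. With it DDIT4 (adjusted p = 0.0177) and PFKFB4 (0.019) were called, which added 1 call each to the unfolded protein response and hypoxia lists. None of 17 tested hypoxia and glycolysis genes passed, although 16 differences were positive (median 0.21) and 2 had an unadjusted p under 0.05. Their mean difference from ethanol was 0.75 in A41 replicate 1 and 0.06 and 0.02 in replicates 2 and 3. Of 10 G1 cyclins and MYC none passed. In that list 9 differences were negative, the median was -0.18 and 2 had an unadjusted p under 0.05. In 5 of the 10 all A41 libraries lay below all ethanol libraries and in 0 above, against 7.94% below over all genes tested. MYC was at 35.6, 34.1 and 34.7 with ethanol and 30.9, 30.1 and 29.3 with A41. S-phase genes (0 of 15) and mitotic genes (0 of 15) had medians of 0.04 and 0.05, and relative to all genes their medians turned from 0.05 and 0.06 to -0.02 and -0.01 in TPM as deposited. The p53 targets (0 of 12), immediate early genes (0 of 12) and unfolded protein response genes (0 of 18) had medians of -0.05, 0.18 and 0.11. An unadjusted p under 0.05 was found in 0 S-phase, 1 mitotic, 3 p53, 3 immediate early and 1 unfolded protein response gene. No marker of astroglia, glioma stem cells, neurons, oligodendrocytes, endothelium, leukocytes or epithelium was called, and 4 in all had an unadjusted p under 0.05 (2 neuronal, 1 astroglial, 1 endothelial). The summed levels of each marker list overlapped between the groups: 274 to 328 with ethanol and 321 to 413 with A41 for 11 astroglial markers, 221 to 225 and 197 to 243 for 9 neuronal markers, and 159 to 182 and 176 to 247 for 8 leukocyte and microglial markers. Of these, PTPRC, AIF1, ITGAM, P2RY12 and CD3E stayed under 1 in all 6 libraries. Endothelial (3.85 to 4.99 and 4.70 to 5.54) and epithelial sums (2.13 to 3.67 and 2.60 to 3.07) were low in both groups.

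Several called genes lay next to each other, seen after their values were known. DHRS3 rose with AC254633.1, a noncoding gene 690 bases from it that went from 2.21, 2.18 and 2.01 to 15.3, 11.4 and 10.7. That is a log2 difference of 2.09 ± 0.29 (SE, adjusted p = 0.00152), with all 3 A41 libraries higher. SCD rose with OLMALINC, a noncoding RNA 8273 bases away, at 1.39, 2.45 and 2.20 with ethanol and 6.58, 5.54 and 7.29 with A41. OLMALINC was higher in every A41 library than in every ethanol library, 3.21-fold in the means (1.32 ± 0.17, adjusted p = 0.000871). LTBP3, FAM89B and EHBP1L1 rose together on chromosome 11, with differences of 1.28, 0.97 and 0.51. ADAMTS1 and ADAMTS5 fell together on chromosome 21, 72513 bases apart, and SCG5 fell with GREM1, a BMP antagonist 20906 bases from it, which went from 67.2, 73.4 and 65.6 to 49.2, 39.4 and 45.6. In all, 13 pairs of called genes lay within 100 kb of each other. In 12 both members moved the same way, the exception being EVI2A and RAB11FIP4. In 2 (NRP2 with AC007362.1 and LIF with AC004264.1) the genes overlap on opposite strands. The pairs among LTBP3, FAM89B and EHBP1L1 share genes, so the 13 are not separate observations. How many such pairs genes taken at random would give was not tested.

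A41 was compared directly with 2 compounds, bexarotene and A34, with p-values adjusted over all genes within each comparison. At the same 100 nM and 24 h, A41 gave higher levels than bexarotene for part of what it raised. Against bexarotene 20 genes were called, 0.109% of those tested, with 19 higher with A41 (0.104%) and 1 lower (0.00547%). Of the 89 genes that A41 raised over ethanol 18 were also higher than with bexarotene, and of the 47 that fell 1, HMGA2, was also lower. CYP26B1 was at 15.8, 12.6 and 13.6 with bexarotene, 1.97 ± 0.19 (SE) below A41 (adjusted p = 0.000181). PTGES was at 49.5, 40.8 and 32.5, a gap of 1.62 ± 0.16 (adjusted p = 0.000181). STRA6 was at 2.97, 1.55 and 1.60, with a gap of 1.58 ± 0.21 (adjusted p = 0.00411), and DHRS3 at 62.02, 69.6 and 67.5, with a gap of 1.21 ± 0.08 (adjusted p = 4.39e-06). In each of these 4 genes every A41 library lay above every bexarotene library.

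The other genes higher than with bexarotene were STX16-NPEPL1, HOXA5, GALNT12, FAM20C, LTBP3, TGM2, SMAD3, GATA6, ID1 and NRIP1 among those named above, with gaps from 0.51 for NRIP1 to 0.99 for HOXA5 apart from the readthrough gene (7.49). FCRLA, PLAT, HOTAIRM1, FAM89B and APLP2 completed the 19, and of these PLAT alone was not called against ethanol. HMGA2 was at 94.9, 107 and 102 with bexarotene, a difference of -0.44 ± 0.07 (adjusted p = 0.0227).

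The lipid genes given here were not called against bexarotene, although for SCD and ABCA1 every A41 library lay above every bexarotene library. SCD was at 116, 121 and 123 with bexarotene, and the A41 minus bexarotene difference of 0.49 (95% interval 0.17 to 0.81) had an adjusted p of 0.477. ABCA1 was at 44.8, 51.6 and 52.7, with a difference of 0.25 (0.01 to 0.49) and an adjusted p of 0.81. For SREBF1 the difference was 0.25 (-0.19 to 0.68), and for SREBF2 it was 0.24 (0.07 to 0.41). RARB differed by 0.32 (-0.10 to 0.74). These intervals, not adjusted for the number of genes, leave room for differences of about the sizes at their ends.

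**Figure D4:**
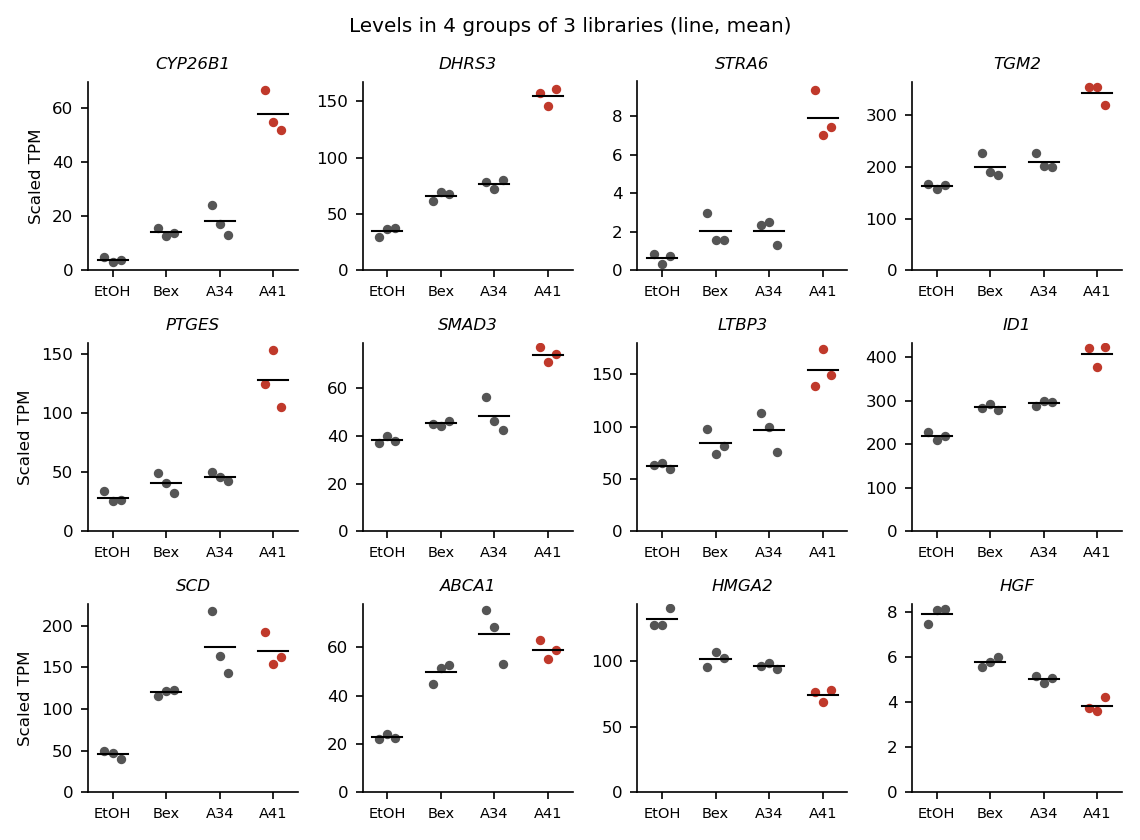
Scaled TPM of 12 genes in each library of ethanol (EtOH), bexarotene (Bex), A34 and A41, 1 panel a gene with its own y axis from 0, and a bar at each group's mean. For CYP26B1 the 3 A41 libraries lie between 51.9 and 66.5, above all bexarotene (12.6 to 15.8) and A34 libraries (13.0 to 24.1), whereas for SCD the A41 and A34 libraries overlap.

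Against A34, 13 genes were called (0.0712%), all higher with A41. CYP26B1 was at 24.1, 17.1 and 13.02 with A34, a gap of 1.66 ± 0.19 (adjusted p = 0.0013). STRA6 was at 2.34, 2.50 and 1.32 (gap 1.56 ± 0.21, adjusted p = 0.00577) and PTGES at 49.9, 45.7 and 42.7 (gap 1.44 ± 0.16, adjusted p = 0.00109). DHRS3 was at 78.1, 72.2 and 80.1, a gap of 1.00 ± 0.08 (adjusted p = 6.42e-05). The rest were GALNT12, PTPRJ, TGM2, HOTAIRM1, SMAD3, NRIP1, FAM89B and ID1, with gaps from 0.46 for ID1 to 0.82 for GALNT12, and LINC02551 (1.96), which was not called against ethanol. SCD was at 217, 164 and 142 with A34, and its difference of -0.03 had an interval from -0.34 to 0.29. ABCA1 was at 75.5, 68.5 and 53.3, a difference of -0.14 with an interval from -0.38 to 0.10.

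Both direct comparisons depended on single libraries. With the replicate block 31 genes were called against bexarotene and 30 against A34, where FAM89B lost its call. ITGB3 and NRP2 were then higher in both (adjusted p = 0.000441 and 0.00127 against bexarotene, 0.00283 and 0.0141 against A34). Leaving out 1 library gave between 8 and 17 calls against bexarotene, with 12 and 11 without A41 replicates 1 and 2 and 10 and 8 without bexarotene replicates 2 and 3. Against A34 it gave between 6 and 13, with 6 without A41 replicate 2 or 3. Without the libraries rich in ribosomal RNA 8 and 6 genes were called. The comparisons with bexarotene and with A34 share the A41 libraries with each other and with the ethanol comparison, so their gene lists are not independent.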

How the data were processed

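RNA depleted of ribosomal RNA by probes was sequenced from 18 U87 libraries (6 groups of 3). The authors aligned the reads with STAR and quantified genes with StringTie on GRCh38, per the submitters' processing notes, which also list MultiQC. Versions, annotation release and strand handling: not given in the sources used here. The deposited tables hold TPM, FPKM and coverage (signal) for 60675 gene IDs. The depth was taken as the most common ratio of coverage to FPKM among the genes of a library. It was 1.31 to 3.89 gigabases a library, which limits the precision of low genes.

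TPM was summed by gene ID (2 to 3 repeated entries a library) and divided by median-of-ratios factors from the 21776 genes above 0 in all 18 libraries. The log2(scaled TPM + 1) of the 18269 genes that reached 1 TPM in 3 or more libraries went into limma 3.58.1 (R 4.3.3) in 1 fit of all groups, with a trend and Benjamini-Hochberg adjustment. The fit was tested on simulated data. Tables and figures used Python 3.11.15, pandas 2.3.3 and matplotlib 3.10.9.

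The deviations of same-numbered A41 and ethanol libraries (numbers from the titles) had correlations of 0.173, 0.307 and 0.119, against -0.238 to 0.083 for other pairs. The highest, 0.307, was between the replicates numbered 2, both rich in ribosomal RNA, and 0.119 was not far above 0.083. The number was therefore fitted as a block only as an alternative. Named genes are the 15 largest increases and 15 largest decreases among called genes with groups apart, a group mean of at least 2 and a span of at least 300 bases, every called member of 43 lists, and 25 receptor and target genes. Members and lists were chosen with earlier results of these data known. Alternatives covered scaling, unit, pseudocount, filter, samples, trend, threshold, block and omitted libraries.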

Additional observations from a re-analysis of the deposited data

How the results depend on the processing

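The 136 genes called by limma between A41 and ethanol became 4 in TPM as deposited (627 genes had an unadjusted p under 0.05), 90 with upper-quartile factors, 34 when the 2 groups alone were fitted, 34 when the factors too came from those 6 libraries (both choices changed, and the fit alone gave the same count), 64 at an adjusted p under 0.01 and 49 when the libraries rich in ribosomal RNA were left out, or 69 when the replicate block was added there. Against bexarotene the 20 calls became 1 in TPM as deposited, 8 without ribosomal RNA genes, 9 at 0.01, 3 with 2 groups, 31 with the replicate block, 8 without the libraries rich in ribosomal RNA and 10 with the block added there. The 13 calls against A34 became 0 in TPM as deposited (826 genes under an unadjusted 0.05), 6 without ribosomal RNA genes, 6 at 0.01, 0 with 2 groups (867 under 0.05), 30 with the block and 6 with no library rich in ribosomal RNA. Leaving out 1 library gave 73 to 115, 8 to 17 and 6 to 13 calls. With the titles' numbers as a replicate block A41 against ethanol had 192 calls, 132 of them among the 136 (CAPN5, KIAA1549L, MYBL2 and PITPNM1 lost theirs). Among the genes named by the rule it ended no call and added ANGPTL4. Among other list members it added calls, with 1 each in the lists for matrix proteases (TIMP4), mesenchymal genes (LOXL2), collagens and integrins (LAMA4) and sphingolipids (UGCG) beside those given with the results, and it changed no other list call. Numbers from the table names gave 121. Factors from the tested genes alone (138 calls) and the block without the libraries rich in ribosomal RNA were chosen after seeing the data.

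Of the 57 called named genes, 53 lost the call in TPM as deposited, 37 with 2 groups, 32 without libraries rich in ribosomal RNA and 9 to 22 with 1 library left out. FPKM ended none of these calls. Some differences changed sign. In TPM as deposited they were -0.0904 for FASN, -0.0265 for MET, -0.0621 for NR1H2, -0.23 for NR1H3, -0.13 for PPARG, -0.18 for RARA and -0.22 for RARG, and without ribosomal RNA genes -0.10 for NR1H3, -0.0298 for PPARG, -0.0286 for RARA and -0.067 for RARG. With 1 library left out NR1H3 ranged from -0.10 (without A41 replicate 2) to 0.17 and PPARG from -0.19 (without ethanol replicate 1) to 0.45, and each was below 0 in both of these omissions. RXRB ranged from -0.12 to 0.0519, above 0 without ethanol replicate 1 or 3 or A41 replicate 3. The cause was not tested. Of these genes MET alone was called.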
